A study of Mus musculus with 19 samples.

Results

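The response of mouse liver to re-feeding was read from the 9 libraries of the series that came from animals given a control antisense oligonucleotide (ASO), out of 19 libraries in all. They were chosen by their labels: 5 libraries from re-fed liver were set against 4 from fasted liver, over every gene that passed a low-count filter. An ASO is a short synthetic nucleic acid that pairs with an RNA and lowers it. The other 10 libraries came from animals whose ASO targeted Plin5, the gene of a protein on the surface of lipid droplets. All mice ate a purified normal diet and were injected 2 times a week for 3 weeks. The fasted control ASO group (libraries 1, 3, 4 and 5) was sampled after an overnight fast, and the re-fed control ASO group (libraries 1 to 5) after the same fast and 4 h of re-feeding. Both groups carried the control ASO, so no untreated liver entered the comparison, and strain, sex, age and the sequence of the control ASO are not given in the labels. The labels do not say that the replicates of a group were separate animals, so p-values measure the spread between these samples, which may be technical.

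During a fast the liver takes up fatty acids released by adipose tissue, oxidises them in mitochondria and peroxisomes, and exports ketone bodies and glucose. The nuclear receptor PPAR alpha turns on much of the fatty acid oxidation programme in that state. After a meal, insulin and glucose act through the transcription factors SREBP-1c and ChREBP on genes of glycolysis, fatty acid synthesis and triglyceride synthesis, while SREBP-2 controls genes of cholesterol synthesis and uptake.

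Total counts per library were 28210530 to 33949977 in fasted and 25767006 to 30806915 in re-fed liver, and levels are given in CPM, counts relative to a library total scaled by the trimmed mean of M values. CPM is not divided by transcript length, so levels are compared between libraries and not between genes. Plin5 was at 35.05, 36.3, 38.5 and 37.8 CPM in the 4 fasted libraries and at 27.3, 51.8, 45.4, 28.3 and 34.8 CPM in the 5 re-fed libraries, and did not differ beyond the spread (log2 difference 0.02, ± 0.27 standard error as in every log2 value below, adjusted p = 0.968). With the Plin5 ASO it was at 9.13 ± 3.44 and 7.74 ± 3.20 CPM (SD, n = 5 each) in fasted and re-fed libraries. Re-fed libraries 3 and 5 stood apart from the other 3 of their group: the chi-square per degree of freedom between counts was 105 to 139 across that divide, 22.3 to 36.7 among re-fed 1, 2 and 4, and 32.6 between re-fed 3 and 5. Both also went against the rest of their group in the clock genes described below. Fasted libraries 3 and 4 were more alike (3.28) than any other pair of fasted libraries (31.9 to 48.5), yet differed by more than sampling noise, and they were counted as 2 samples. Long transcripts (over 5000 nt, 2598 genes) stood higher relative to short ones (under 1000 nt, 744 genes) in re-fed than in fasted libraries, by 0.23 on the log2 scale (exact permutation test, two-sided, p = 0.0159, smallest possible 0.00794). With the length trend taken out of the fit, 1576 genes were called, 1346 of them among the 1759 given below.

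At an adjusted p under 0.05 (edgeR's quasi-likelihood test, two-sided, Benjamini-Hochberg adjustment over the 13293 genes tested, as for every adjusted p given for these groups), 1759 genes were called, which is 13.2% of those tested. Of these, 853 rose on re-feeding (6.42%) and 906 fell (6.82%). The changes were mostly small: the median fold was 1.47 among genes that rose and 1.37 among genes that fell, and 184 rose and 96 fell at least 2-fold. The median log2 difference over all genes was 0.025. Without re-fed libraries 3 and 5 the count was 916 (399 rose, 517 fell), and 803 of these were among the 1759. Without fasted library 3 it was 1112, without fasted library 4 it was 1161, and with fasted libraries 3 and 4 summed as 1 sample it was 1139. The rises numbered 500 without fasted library 3, 522 without fasted library 4 and 562 without re-fed library 3. In every fit that left out 1 of the 9 libraries, and in the fit without re-fed 3 and 5, 669 genes stayed called (274 that rose and 395 that fell). For the gene lists below, the number that stayed called in all of these fits is given as the number that held. The fit with the length trend taken out is not among them. Each list's counts of rises and falls are to be read against the 6.42% and 6.82% of all genes. With the length trend taken out, the lists of fatty acid synthesis, cholesterol, mitochondrial fatty acid oxidation and PPAR alpha had 14, 19, 17 and 13 calls in place of 15, 20, 17 and 13.

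**Figure D1:**
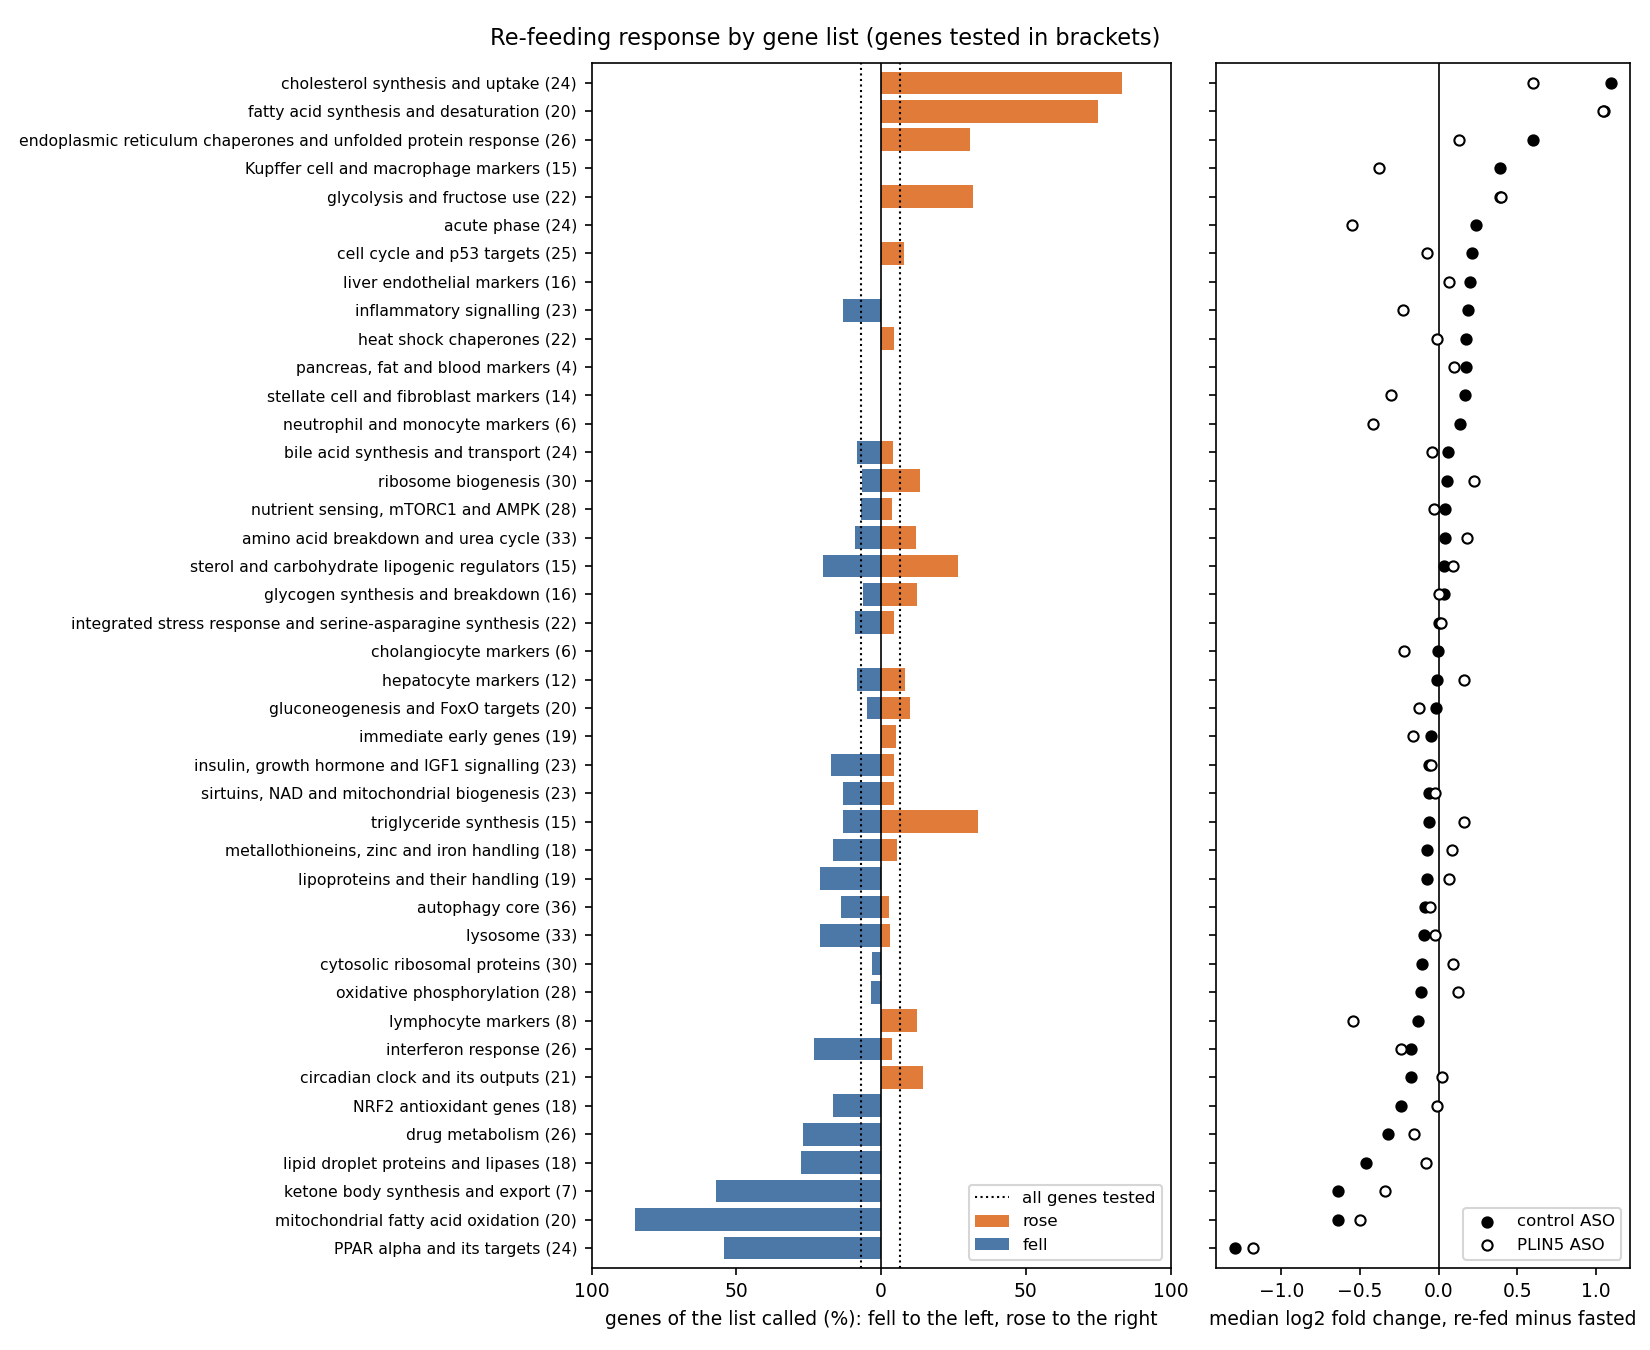
Share of each gene list that rose (orange, to the right) or fell (blue, to the left) on re-feeding under control ASO, in percent of its genes tested, with dotted lines at the shares over all genes (6.42% and 6.82%), and the list's median log2 fold change under control ASO (filled) and PLIN5 ASO (open). Rises were 20 of 24 genes in cholesterol synthesis and 15 of 20 in fatty acid synthesis, and falls were 17 of 20 in mitochondrial fatty acid oxidation, 4 of 7 in the ketone body list and 13 of 24 in PPAR alpha targets.

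Genes of fatty acid synthesis and desaturation rose: 15 of the 20 tested were called higher in re-fed liver, none was called lower, and the list's median log2 difference was 1.05 against 0.025 over all genes. Of the 15 calls, 11 held. Fasn (chr11:120805846-120824547, minus strand; GRCm38), the fatty acid synthase itself, was at 53.5, 92.5, 91.2 and 78.6 CPM in the fasted libraries and at 1044, 707, 993, 1444 and 808 CPM in the re-fed libraries. All 5 re-fed values lay far above all 4 fasted values, and the change was 12.7-fold (log2 fold change 3.66 ± 0.28, adjusted p = 5.72e-07). Acly, ATP citrate lyase, which makes the cytosolic acetyl-CoA that the pathway uses, was at 66.2, 88.2, 89.8 and 59.5 CPM fasted and 430.5, 303, 251, 418 and 437 CPM re-fed (log2 fold change 2.28 ± 0.22, adjusted p = 5.89e-06). The groups did not overlap here either. Mid1ip1, which promotes the assembly of acetyl-CoA carboxylase into its active polymer, went from a fasted range of 31.1 to 47.1 CPM to a re-fed range of 123 to 166 CPM (log2 fold change 1.79 ± 0.17, adjusted p = 5.89e-06). Among the carboxylases, Acaca rose by 1.73 and Acacb by 3.16 on the log2 scale.

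Thrsp, a lipogenic nuclear protein that responds to thyroid hormone and carbohydrate, was at 30.4, 147, 151 and 50.3 CPM fasted and 1274, 1425, 998, 1473 and 828 CPM re-fed (log2 fold change 3.66 ± 0.73, adjusted p = 0.00298). Fasted libraries 1 and 5 were lower than fasted 3 and 4, and all re-fed libraries were higher than any of them. Pnpla3, a lipid droplet acyl hydrolase controlled by SREBP-1c, had the largest rise of the list, from 0.486, 0.458, 0.961 and 0.212 CPM to 14.0, 5.46, 2.80, 16.6 and 14.2 CPM (log2 fold change 4.30 ± 0.64, adjusted p = 0.000312). Elovl6, an elongase of palmitate, rose from a fasted range of 33.0 to 46.6 CPM to a re-fed range of 97.4 to 228 CPM. NADPH-forming enzymes moved too: Pgd rose by 1.08 and Me1 by 1.10 on the log2 scale, but the call for Me1 was lost in some fits that left out 1 library (highest adjusted p 0.0586, without fasted library 1). Scd1, the main liver desaturase, was at 2806, 7203, 7059 and 6485 CPM fasted and 13040, 10830, 6884, 12620 and 8615 CPM re-fed, and was not called (log2 difference 0.82 ± 0.49, adjusted p = 0.280). Its fasted library 1 was far below the other fasted libraries, and re-fed library 3 fell within the fasted range.

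**Figure D2:**
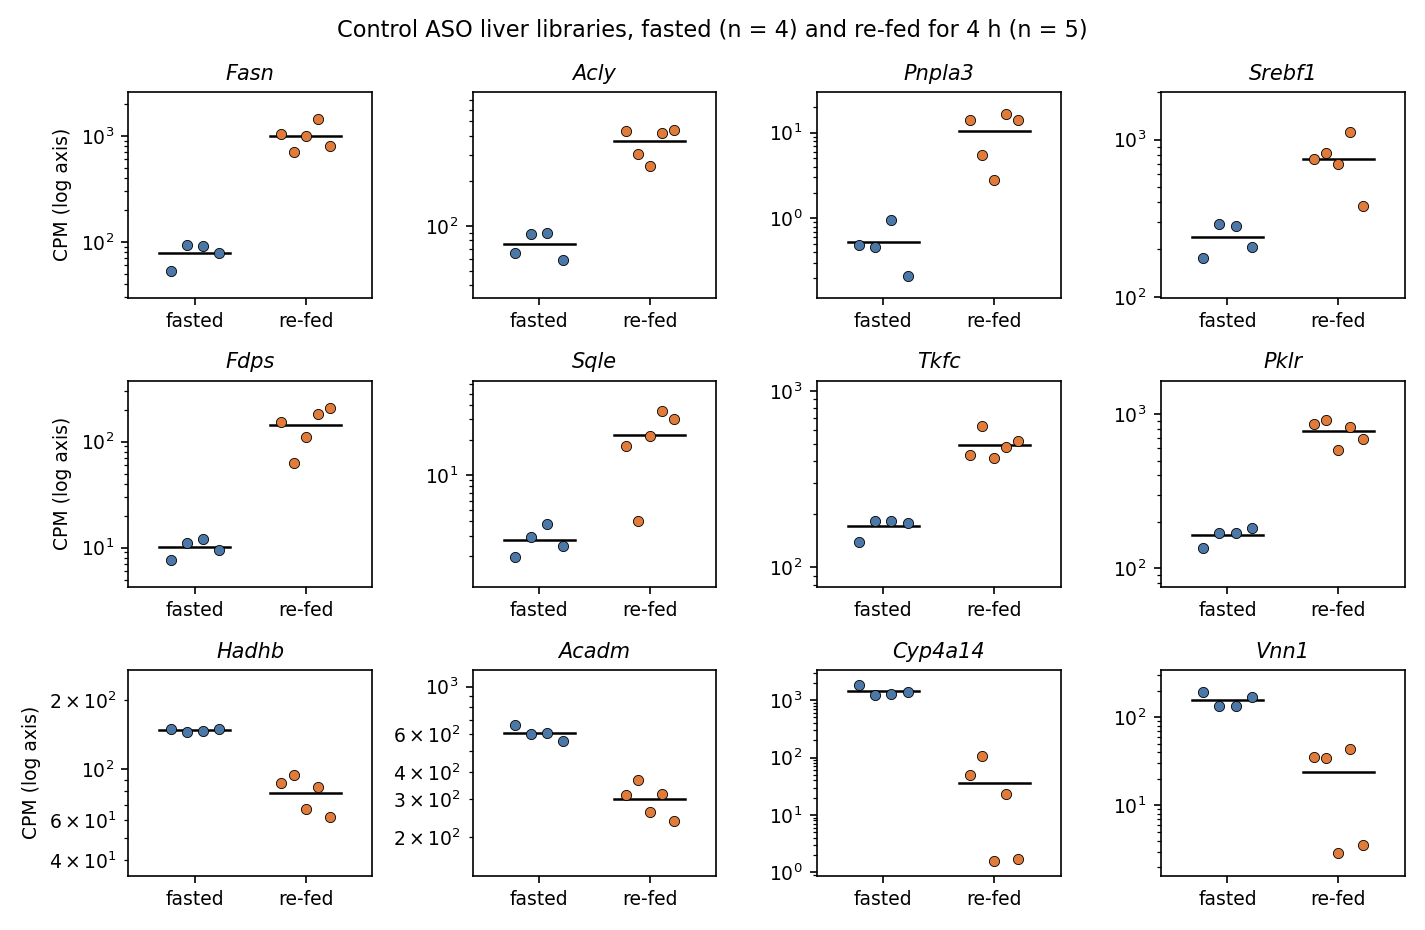
Level of 12 genes in CPM (log axis) in the 4 fasted (blue) and 5 re-fed (orange) control ASO libraries, with bars at the group means. The lipogenic, cholesterol and glycolytic genes of the upper 8 panels sit higher in re-fed liver (Fasn 53.5 to 92.5 against 707 to 1444 CPM), and the 4 fasting genes of the lower panels sit lower (Cyp4a14 1240 to 1869 against 1.57 to 108 CPM).

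Among 15 regulators of these pathways 4 were called higher and 3 lower, of which 3 and 2 held. Srebf1, which encodes SREBP-1c, was at 178, 289, 280 and 207 CPM in fasted and 757, 821, 695, 1114 and 376 CPM in re-fed liver (log2 fold change 1.66 ± 0.31, adjusted p = 0.00190). Re-fed library 5 was the lowest of its group and still above every fasted library. Insig1, an endoplasmic reticulum protein that holds SREBPs back and is itself an SREBP target, was at 40.4, 87.2, 90.8 and 68.8 CPM fasted and 234, 118, 254, 179 and 265 CPM re-fed (log2 fold change 1.55 ± 0.25, adjusted p = 0.000537). Mlxipl, which encodes ChREBP, rose less, from 424, 298, 293 and 448 to 636, 509.7, 599, 561 and 811 CPM (log2 fold change 0.77 ± 0.17, adjusted p = 0.00531). Srebf2, which encodes SREBP-2, was called at 0.48 (adjusted p = 0.0208), but its re-fed libraries 3 and 5 (44.7 and 45.0 CPM) were the high ones and the call was lost without them (log2 difference 0.21, adjusted p = 0.221). The genes called lower were Nr1h2, Usf1 and Rxra, with log2 fold changes of -0.28, -0.40 and -0.30. For Rxra the adjusted p was 0.143 without re-fed 3 and 5.

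Cholesterol synthesis and uptake was the list with the highest median, 1.10 on the log2 scale: 20 of 24 genes were called higher and none lower, and 15 of the calls held. RefSeq (GRCm38.p6) windows were matched by symbol for 16 of the 24 genes. Where a gene had more than 1 window, the first was used for the counts over 150 bases. In the 150 bases before the start, the letters CCAAT on either strand (CCAAT or ATTGG) were in 14 of the 16 windows (87.5%), against 28.2% of the 10109 windows of tested genes. At least 2 copies were in 6 of the 16 (37.5%), against 9.1%. In the mitochondrial fatty acid oxidation list 4 of 18 windows held the letters (22.2%). Over 250 bases a gene was counted if any of its windows held the letters. On that count they were in 15 of 16 cholesterol genes (93.8%) and 11 of 18 genes of PPAR alpha and its targets (61.1%), a list with no rise. They were also in 9 of 17 genes of fatty acid synthesis (52.9%), 7 of 18 of mitochondrial fatty acid oxidation (38.9%) and 40.2% of tested genes with a window. CCAAT is the core of the site of the factor NF-Y, which binds promoters beside SREBP. A match is a description of these letters and not of binding. The sterol response element TCACNCCAC was searched over 250 bases on both strands and counted by gene in the same way. It was in 1 of the 16 cholesterol genes (Hmgcs1, 6.25%) and 2 of the 18 PPAR alpha genes (11.1%). None of the 17 fatty acid synthesis genes had it, against 1.38% of tested genes with a window. The windows below are those with at least 2 copies among the genes with a rise over 1.5 on the log2 scale. They are followed, for comparison, by the first of 3 windows of Dhcr7, which holds no copy. Another window of Dhcr7 held a copy within 250 bases. CCAAT or its reverse complement is in capitals. Each window shown ends at the base before the start in RefSeq's table and is written 5′ to 3′ on the gene's strand. The GENCODE annotation begins Idi1 at base 8885501 and Dhcr7 at base 143823145, inside these windows, and both copies of Idi1 lie past that start.
Idi1 (chr13:8885456-8885605, plus strand): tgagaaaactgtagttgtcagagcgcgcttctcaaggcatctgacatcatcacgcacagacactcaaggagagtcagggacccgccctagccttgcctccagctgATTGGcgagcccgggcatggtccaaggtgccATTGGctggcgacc
Mvd (chr8:122443423-122443572, minus strand): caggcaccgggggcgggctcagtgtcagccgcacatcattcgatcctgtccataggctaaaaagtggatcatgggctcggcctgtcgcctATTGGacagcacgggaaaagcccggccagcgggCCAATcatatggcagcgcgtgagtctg
Nsdhl (chrX:72918371-72918520, plus strand): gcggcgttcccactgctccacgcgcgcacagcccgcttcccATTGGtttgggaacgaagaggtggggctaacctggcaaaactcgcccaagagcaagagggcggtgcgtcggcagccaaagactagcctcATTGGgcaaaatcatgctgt
Msmo1 (chr8:64733579-64733728, minus strand): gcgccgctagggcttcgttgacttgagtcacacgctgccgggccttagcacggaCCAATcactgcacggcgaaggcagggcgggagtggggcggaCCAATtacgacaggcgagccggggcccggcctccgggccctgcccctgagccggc
Dhcr7 (chr7:143823017-143823166, plus strand): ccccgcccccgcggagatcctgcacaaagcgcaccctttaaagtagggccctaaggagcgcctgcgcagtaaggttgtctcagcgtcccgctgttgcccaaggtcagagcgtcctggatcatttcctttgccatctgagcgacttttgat

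Along the pathway, the early steps that make isoprenoid units rose. Mvd, a decarboxylase that makes isopentenyl diphosphate, was at 1.69, 1.25, 2.37 and 1.95 CPM fasted and 7.49, 1.99, 11.3, 7.79 and 14.7 CPM re-fed (log2 fold change 2.26 ± 0.41, adjusted p = 0.00148). Idi1, whose isomerase makes dimethylallyl diphosphate, was at 0.457, 0.550, 0.630 and 0.283 CPM fasted and 4.77, 2.58, 4.74, 5.70 and 8.71 CPM re-fed (log2 fold change 3.44 ± 0.59, adjusted p = 0.000910). Fdps, farnesyl diphosphate synthase, was at 7.71, 11.1, 12.1 and 9.49 CPM fasted and 152, 63.0, 109.7, 182 and 207 CPM re-fed, a 14.1-fold rise (log2 fold change 3.82 ± 0.44, adjusted p = 3.21e-05). Re-fed library 2 was the lowest of its group for all 3 genes, and for Mvd it lay within the fasted range. Hmgcs1, a cytosolic synthase at the start of the pathway, was called at 1.01 (adjusted p = 0.0160) and was highest in re-fed library 5 (145 CPM). That call was lost without re-fed 3 and 5 (log2 difference 0.66, adjusted p = 0.131).

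The later, sterol-forming steps rose as well. Sqle, squalene epoxidase, was at 1.97, 2.90, 3.81 and 2.44 CPM fasted and 17.7, 4.02, 21.6, 35.7 and 30.5 CPM re-fed (log2 fold change 2.98 ± 0.57, adjusted p = 0.00217), and its re-fed library 2 was just above the highest fasted value. Lss, lanosterol synthase, had the smallest p of the list, from 11.9, 12.3, 13.3 and 13.8 CPM to 43.8, 25.9, 39.05, 42.6 and 48.3 CPM (log2 fold change 1.64 ± 0.16, adjusted p = 5.89e-06). Dhcr7, the last reductase of the pathway, was at 18.2, 19.8, 18.3 and 13.6 CPM fasted and 68.2, 38.1, 65.3, 78.6 and 95.7 CPM re-fed (log2 fold change 1.98 ± 0.23, adjusted p = 3.21e-05). Cyp51, Nsdhl and Msmo1, which remove methyl groups from lanosterol, rose by 2.09, 2.15 and 1.52 on the log2 scale.

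In glycolysis and fructose use 7 of 22 genes were called higher, none lower, and the median was 0.39; 6 calls held. Pklr, liver pyruvate kinase and a ChREBP target, was at 136, 168, 168 and 181 CPM fasted and 868, 917, 586, 828 and 688 CPM re-fed (log2 fold change 2.25 ± 0.33, adjusted p = 0.000262). The fasted and re-fed groups did not overlap. Tkfc, triokinase, which phosphorylates the glyceraldehyde made from fructose, rose from a fasted range of 140.1 to 184 CPM to a re-fed range of 415 to 632 CPM (log2 fold change 1.53 ± 0.16, adjusted p = 8.53e-06).

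Of 16 glycogen genes 2 were called higher and 1 lower, against 6.42% and 6.82% of all genes tested. Pygl, liver glycogen phosphorylase, which breaks glycogen down, was at 341, 331, 338 and 342 CPM fasted and 653, 699, 735, 629.8 and 840.3 CPM re-fed (log2 fold change 1.07 ± 0.10, adjusted p = 5.89e-06), a tight separation of the groups. Ppp1r3b, a subunit that directs phosphatase to glycogen, was called at 1.31 (adjusted p = 0.00802), and at 1.10 (adjusted p = 0.0535) without re-fed 3 and 5. Gaa, the lysosomal glucosidase that digests glycogen, fell from a fasted range of 117 to 127 CPM to a re-fed range of 84.4 to 97.9 CPM (log2 fold change -0.37 ± 0.08, adjusted p = 0.00412).

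Genes of gluconeogenesis and targets of the insulin-repressed factor FoxO1 were mostly not called: 2 of 20 rose, 1 fell, and none of these calls held. Over all genes tested, 6.42% rose and 6.82% fell. G6pc, glucose-6-phosphatase, which releases glucose from the liver, was higher after re-feeding, with 379, 479, 465 and 507 CPM fasted and 514, 1129, 1011, 1081 and 1552 CPM re-fed (log2 fold change 1.21 ± 0.28, adjusted p = 0.00762). All re-fed libraries were above all fasted ones, although re-fed library 1 was close to them. Without re-fed 3 and 5 the difference was 0.99 with an adjusted p of 0.0510. Pck1, the first committed enzyme of gluconeogenesis, was at 1545, 3781, 3840 and 2823 CPM fasted and 2677, 2171, 2493, 2601 and 2668 CPM re-fed (log2 difference -0.25 ± 0.22, adjusted p = 0.494). Its fasted library 1 was lower than every re-fed library and the other 3 fasted libraries were higher than every re-fed one. Igfbp1, an insulin-repressed secreted protein, was at 27.9, 79.7, 82.5 and 61.6 CPM fasted and 31.3, 69.4, 21.2, 74.3 and 213 CPM re-fed (log2 difference 0.38 ± 0.51, adjusted p = 0.670), with re-fed library 5 far above the rest. Irs2, an insulin receptor substrate induced by fasting, was at 12.1, 6.81, 6.39 and 10.6 CPM fasted and 11.1, 4.21, 2.37, 11.5 and 17.9 CPM re-fed (log2 difference 0.07 ± 0.42, adjusted p = 0.933), with re-fed 5 above the fasted range, re-fed 2 and 3 below it and the other 2 re-fed libraries within it. The 95% intervals of the log2 differences were -0.71 to 0.22 for Pck1, -0.69 to 1.44 for Igfbp1 and -0.80 to 0.95 for Irs2. The other calls of the list were Creb1 (log2 fold change 0.35) and Crtc2 (-0.29), lost in at least 1 fit that left out a library (highest adjusted p 0.0549 without fasted library 1 and 0.142 without fasted library 5).

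Genes of triglyceride synthesis moved in both directions, with 5 of 15 called higher and 2 lower, all of which held. Lpin1, a phosphatidate phosphatase, was at 22.8, 57.6, 61.3 and 40.6 CPM fasted and 497, 442, 100.1, 257 and 75.9 CPM re-fed (log2 fold change 2.59 ± 0.55, adjusted p = 0.00432), and re-fed 3 and 5 were much lower than re-fed 1, 2 and 4. Gpam, which starts glycerolipid synthesis at the mitochondrion, was at 68.6, 68.2, 72.9 and 70.6 CPM fasted and 152, 80.1, 108, 132 and 135 CPM re-fed (log2 fold change 0.79 ± 0.16, adjusted p = 0.00267). The acyl-CoA synthetases differed by member: Acsl4 rose by 1.03, Acsl3 by 1.02 and Acsl5 by 0.53 on the log2 scale. Acsl1, the main liver form and a PPAR alpha target, fell from 2152, 2087, 2074 and 2513 CPM to 1031, 1532, 957, 933 and 1118 CPM (log2 fold change -0.99 ± 0.17, adjusted p = 0.00119). Agpat3, an acyltransferase, also fell (log2 fold change -0.36 ± 0.07, adjusted p = 0.00164).

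Lipid droplet proteins and lipases fell in 5 of 18 cases, with none called higher, a median of -0.46 and 4 calls that held. Pnpla2, the adipose triglyceride lipase, was at 120.2, 144, 145 and 150.3 CPM fasted and 88.5, 85.1, 62.0, 99.7 and 58.3 CPM re-fed (log2 fold change -0.83 ± 0.17, adjusted p = 0.00298), with no overlap. Hsd17b11, a droplet-associated dehydrogenase, fell from a fasted range of 413 to 441 CPM to a re-fed range of 152 to 253 CPM (log2 fold change -1.10 ± 0.13, adjusted p = 3.81e-05), and Mgll, monoacylglycerol lipase, from 335 to 359.8 CPM fasted to 170 to 273 CPM re-fed. Plin2, the main droplet coat protein of liver, fell by 0.82 on the log2 scale (adjusted p = 0.00771), with 485 to 572 CPM fasted and 231 to 361 CPM re-fed. Of 19 lipoprotein genes 4 fell and none rose. Lcat, which esterifies cholesterol in plasma lipoproteins, was the clearest (log2 fold change -0.54 ± 0.08, adjusted p = 0.000286), and Lipc, hepatic lipase, followed (log2 fold change -0.30 ± 0.07, adjusted p = 0.0107). The call for Lipc was lost with the length trend taken out (adjusted p = 0.0696). Apoe and Apoa2, apolipoproteins of several plasma lipoproteins, were called at -0.45 and -0.38 (adjusted p = 0.0285 and 0.0471), and both lost the call in most fits that left out 1 library (highest adjusted p 0.0756 and 0.111, each without fasted library 3). Without fasted library 1 the list had 2 calls.

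Mitochondrial fatty acid oxidation fell as a group: 17 of 20 genes were called lower, none higher, and 14 of the calls held. The median was -0.64 on the log2 scale, and for 19 of the 20 genes every re-fed library was below every fasted one, as was the case for 9.12% of all genes tested (16.3% in either direction). Acadm, medium-chain acyl-CoA dehydrogenase, was at 663, 600.1, 608 and 559 CPM fasted and 313, 368, 260, 317 and 238 CPM re-fed (log2 fold change -1.02 ± 0.12, adjusted p = 4.35e-05). Hadhb, the thiolase subunit of the trifunctional protein, was at 149, 145, 146 and 150.2 CPM fasted and 86.9, 94.7, 66.8, 83.4 and 61.8 CPM re-fed (log2 fold change -0.91 ± 0.10, adjusted p = 3.25e-05). Cpt2, the inner membrane carnitine palmitoyltransferase, was at 288, 272, 268 and 272 CPM fasted and 154, 192, 169, 174 and 170.4 CPM re-fed (log2 fold change -0.68 ± 0.08, adjusted p = 5.37e-05). The spread within each group was small beside the difference in all 3 genes. Cpt1a, the regulated entry step, was at 435, 516, 506 and 477 CPM fasted and 426, 406, 232, 389.7 and 191 CPM re-fed and was not called (log2 difference -0.56 ± 0.21, adjusted p = 0.0806), with re-fed 3 and 5 well below re-fed 1, 2 and 4.

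Ketone body genes followed, with 4 of 7 called lower, none higher, and all 4 calls held. Acat1, the mitochondrial thiolase that joins acetyl-CoA units, was at 772, 656, 650.4 and 719 CPM fasted and 488, 527, 443, 475 and 388 CPM re-fed (log2 fold change -0.59 ± 0.09, adjusted p = 0.000537). Bdh1, which interconverts the ketone bodies, was at 409.5, 423, 423 and 435 CPM fasted and 291, 268, 207, 312 and 182 CPM re-fed (log2 fold change -0.75 ± 0.13, adjusted p = 0.00123).

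Of PPAR alpha and its targets 13 of 24 genes fell and none was called higher, with the lowest median of all lists (-1.30) and 10 calls that held. Cyp4a14 (chr4:115486200-115496142, minus strand; GRCm38), a fatty acid omega-hydroxylase, fell from 1869, 1240, 1258 and 1409 CPM to 48.9, 108, 1.57, 22.9 and 1.68 CPM (log2 fold change -5.30 ± 1.05, adjusted p = 0.00281), a 39.5-fold decrease. Every re-fed value was far below every fasted one, and re-fed 3 and 5 were the lowest by a wide margin. Its relatives Cyp4a10 and Cyp4a31 fell by 3.91 and 3.27 on the log2 scale. These genes are close paralogs, as are Acot1 (log2 fold change -2.76 ± 0.54, adjusted p = 0.00260) and its neighbours, and the labels do not say how reads shared between them were counted.

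Vnn1, a pantetheinase, was at 192, 133, 136 and 169 CPM fasted and 35.4, 34.8, 2.87, 43.5 and 3.56 CPM re-fed (log2 fold change -2.71 ± 0.60, adjusted p = 0.00554), again lowest in re-fed 3 and 5. Retsat, a retinol saturase, fell from a fasted range of 544 to 753 CPM to a re-fed range of 131 to 304 CPM (log2 fold change -1.68 ± 0.21, adjusted p = 6.69e-05), and Slc22a5, the carnitine transporter, from 27.6 to 31.3 CPM fasted to 5.47 to 13.7 CPM re-fed (log2 fold change -1.70 ± 0.26, adjusted p = 0.000351). Ppara itself was called at -0.57 (adjusted p = 0.0178), and at -0.39 (adjusted p = 0.138) without re-fed 3 and 5. Fgf21, a fasting hormone made by the liver, was at 6.06, 4.92, 5.46 and 7.82 CPM fasted and 1.86, 1.99, 2.10, 4.05 and 4.32 CPM re-fed. All its re-fed values were lower, yet the difference was not called (log2 difference -1.07 ± 0.51, adjusted p = 0.174).

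Among genes of insulin, growth hormone and IGF1 signalling 4 of 23 fell and 1 rose, and 1 call held: Igfbp2, a secreted IGF-binding protein, which went from a fasted range of 503 to 675 CPM to a re-fed range of 173 to 323 CPM (log2 fold change -1.14 ± 0.21, adjusted p = 0.00178). Without fasted library 1 the list had 1 gene that fell. In the mTORC1 and AMPK list 1 of 28 rose and 2 fell, against 6.42% and 6.82% of all genes tested, and none of the 3 calls held. Stk11, which encodes the kinase LKB1 upstream of AMPK, was called at -0.24 (adjusted p = 0.0227), with an adjusted p of 0.0869 without fasted library 5. Sesn3 and Fnip1 were called at 0.82 and -0.49, with adjusted p of 0.144 and 0.111 without re-fed 3 and 5.

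The title of the series concerns autophagy during fasting. Of 36 core autophagy genes 1 rose and 5 fell on re-feeding under control ASO, against 6.42% and 6.82% of all genes tested. The list's median was -0.09, and 1 and 3 of these calls held. Ulk1, the kinase that starts autophagy, was the gene that rose, from 61.0, 62.2, 68.0 and 67.4 CPM to 103, 87.8, 81.8, 119 and 94.2 CPM (log2 fold change 0.59 ± 0.09, adjusted p = 0.000274). Gabarapl1, an ATG8 family member that is lipidated on autophagosomes, was at 619, 552, 557 and 521 CPM fasted and 368, 283, 246, 368 and 319.5 CPM re-fed (log2 fold change -0.83 ± 0.14, adjusted p = 0.000623). Atg4d, an ATG8 protease, and Map1lc3a, another ATG8 member, fell by 0.48 and 0.57 on the log2 scale. Map1lc3b and Optn were called at -0.36 and -0.41, with adjusted p of 0.137 and 0.158 without re-fed 3 and 5. Among 33 lysosome genes 7 fell and 1 rose, and 4 falls held. They were small: Psap, the saposin precursor, fell by 0.45, Neu1, a sialidase, by 0.40 and Ctsh, a cathepsin, by 0.24 on the log2 scale. With the length trend taken out, Ctsh was not called (adjusted p = 0.0645), while the list had 9 falls. Without fasted library 3 there were 5 falls, and without re-fed library 4 there were 10.

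Of amino acid and urea cycle genes 4 of 33 rose and 3 fell, against 6.42% and 6.82% of all genes tested. Cps1, which starts the urea cycle, was at 2121, 2060, 2093 and 1816 CPM fasted and 3957, 3476, 3875, 3416 and 3491 CPM re-fed (log2 fold change 0.85 ± 0.09, adjusted p = 2.36e-05), with wide separation. Arg1, arginase, which ends the cycle, rose by 0.46 (adjusted p = 0.0102), with re-fed library 5 (1289 CPM) within the fasted range. Oat, ornithine aminotransferase, fell from a fasted range of 1054 to 1542 CPM to a re-fed range of 292 to 837 CPM (log2 fold change -0.99 ± 0.24, adjusted p = 0.00937). Without fasted library 5 the rises numbered 2. In the integrated stress response list 1 of 22 rose and 2 fell, and none of these calls held. Asns, asparagine synthetase, was at 1.86, 0.672, 0.780 and 0.602 CPM fasted and 1.15, 1.36, 9.15, 1.87 and 3.87 CPM re-fed (log2 difference 1.82 ± 0.66, adjusted p = 0.0721), high in re-fed 3 and 5.

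Endoplasmic reticulum chaperones and genes of the unfolded protein response were called higher in 8 of 26 cases and lower in none, with a median of 0.60. The list rested on re-fed 3 and 5: 2 of the 8 calls remained without them, Derl2 and Sec61b, which were also the 2 that held. Without fasted library 4 the count was 4, and without re-fed library 2 it was 16. Derl2, part of the machinery that exports misfolded proteins, was at 83.5, 79.2, 80.1 and 65.9 CPM fasted and 119.6, 97.4, 129.9, 131 and 127 CPM re-fed (log2 fold change 0.65 ± 0.12, adjusted p = 0.00212). Sec61b, a subunit of the protein translocation channel, rose by 0.49 on the log2 scale. Hspa5, the chaperone BiP, was at 533, 603, 596 and 463 CPM fasted and 522, 497, 1465, 799 and 1239 CPM re-fed and was not called (log2 difference 0.72 ± 0.28, adjusted p = 0.0950). Re-fed 3 and 5 were far above every fasted library, re-fed 4 was above them by less, and re-fed 1 and 2 lay within the fasted range.

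Protein synthesis lists moved little. Of 30 ribosome biogenesis genes 4 rose (2 without fasted library 1) and 2 fell, with 1 call of each direction that held: Utp20, a nucleolar factor, rose by 0.40 and Npm1, nucleophosmin, fell by 0.35 on the log2 scale. With the length trend taken out, Utp20 was not called (log2 difference 0.24, adjusted p = 0.219), and 2 genes of the list rose and 2 fell. Of 30 ribosomal protein genes 1 was called, Rps14, which was lower by 0.37 on the log2 scale (adjusted p = 0.0168) and had an adjusted p of 0.0511 without fasted library 3. The log2 difference was below 0 for 27 of the 30, with a median of -0.11. In the heat shock list 1 of 22 was called, Chordc1 (log2 fold change 0.35), lost without fasted library 5 (adjusted p = 0.116). For respiratory chain and ATP synthase genes the count was 1 of 28, Cox4i1 (log2 fold change -0.30), lost without fasted library 3 (adjusted p = 0.101). Of these 28 genes 26 had a log2 difference below 0, with a median of -0.11. Over all genes under 1000 nt the median log2 difference was -0.118. With the length trend taken out, no ribosomal protein or respiratory chain gene was called. Under PLIN5 ASO the medians of these 2 lists were 0.09 and 0.13. The part of transcript length in the medians of these lists was not tested.

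Clock genes divided the re-fed group. Arntl, which encodes the clock activator BMAL1, was at 2.37, 1.44, 0.841 and 0.991 CPM fasted and 1.25, 3.47, 23.8, 0.633 and 45.0 CPM re-fed, so that re-fed 3 and 5 were high and the other 3 lay near the fasted range. Npas2, a partner of BMAL1, was at 0.114, 0.275, 0.180 and 0.0708 CPM fasted and 0.143, 0.111, 6.28, 0.127 and 13.6 CPM re-fed, and the same 2 libraries were the high ones. Dbp, a clock output factor that peaks opposite to Arntl, was at 148, 134, 139 and 160.4 CPM fasted and 123, 50.2, 11.6, 132 and 1.82 CPM re-fed, lowest in re-fed 3 and 5. Arntl and Npas2 were called (3.38, adjusted p = 0.0467 and 4.62, adjusted p = 0.0403), and without re-fed 3 and 5 the log2 differences were 0.31 (adjusted p = 0.875) and -0.34 (adjusted p = 0.914). Dbp was not called (-1.19, adjusted p = 0.363). The labels give no time of day for any library, so a shift in sampling time was not tested. Bhlhe40, a clock repressor that also responds to insulin, was the 1 call of 3 in the list of 21 that held, from 151, 173, 166 and 184 to 230.2, 280.2, 386, 248 and 268 CPM (log2 fold change 0.74 ± 0.13, adjusted p = 0.00129).

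**Figure D3:**
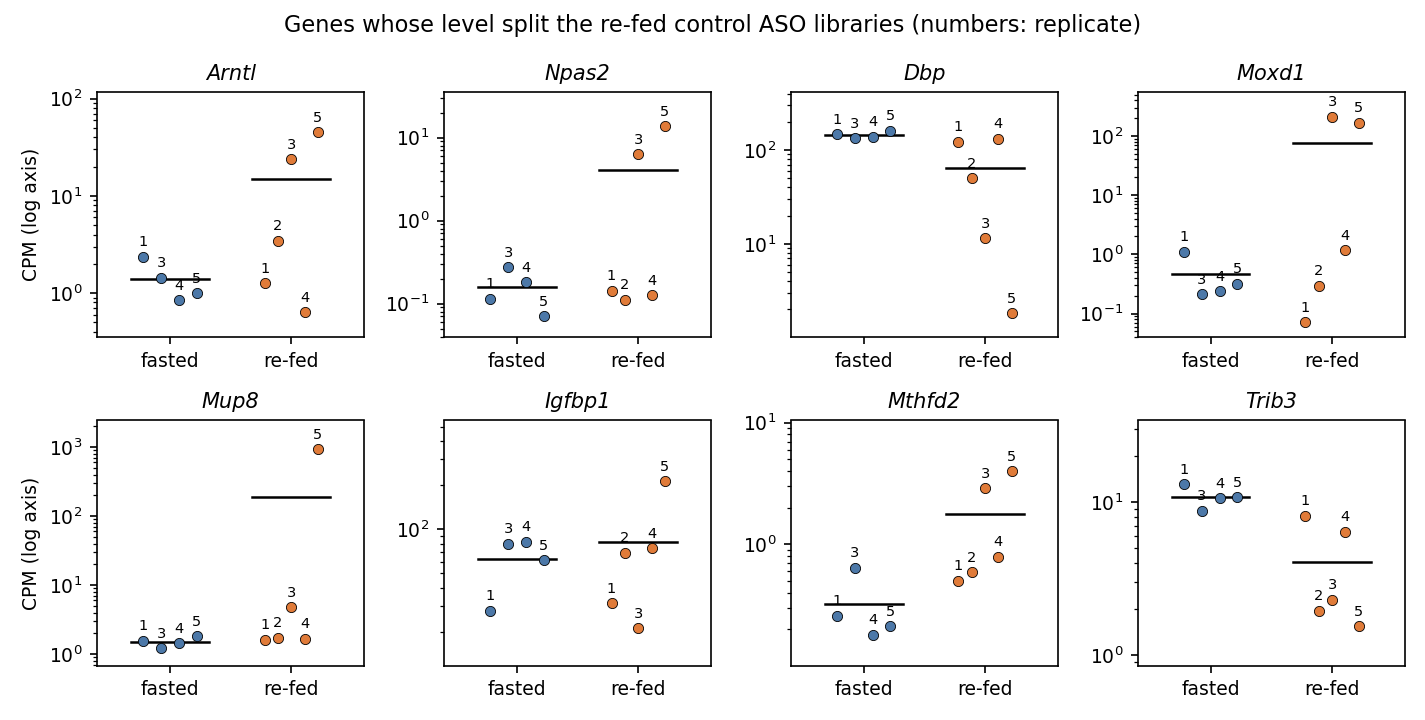
Level of 8 genes in CPM (log axis) in the fasted (blue) and re-fed (orange) control ASO libraries, each point labelled with its replicate number and bars at the group means. Re-fed 3 and 5 are high for Arntl (23.8 and 45.0 CPM), Npas2, Moxd1 and Mthfd2 and low for Dbp, and re-fed 5 alone is high for Mup8 (933 CPM) and Igfbp1.

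Several of the largest fitted rises rested on the same 2 libraries. Moxd1, a monooxygenase-like gene, was at 1.11, 0.214, 0.240 and 0.319 CPM fasted and 0.0717, 0.295, 212, 1.17 and 167 CPM re-fed (log2 fold change 7.29 ± 2.22, adjusted p = 0.0355). Mup8, one of a family of near-identical major urinary protein genes, was at 1.57, 1.22, 1.44 and 1.81 CPM fasted and 1.61, 1.73, 4.81, 1.68 and 933 CPM re-fed (log2 fold change 6.97 ± 2.25, adjusted p = 0.0460), high in re-fed 5 alone. Without re-fed 3 and 5 the log2 differences were 0.14 (adjusted p = 0.979) and 0.15 (adjusted p = 0.971). Clic3, Lrp2 and Rnase2a, also among the 12 largest rises, had adjusted p of 0.371, 0.129 and 0.113 without these libraries. Mthfd2, a mitochondrial folate enzyme, was called at 2.43, with 0.502, 0.590, 2.90, 0.792 and 4.01 CPM re-fed. Without re-fed 3 and 5 its log2 difference was 0.95 (adjusted p = 0.364). Trib3 was a fall, called at -1.40, with 8.10, 1.96, 2.30, 6.40 and 1.54 CPM re-fed, so that re-fed 2 was low as well as 3 and 5. Its log2 difference without re-fed 3 and 5 was -0.97 (adjusted p = 0.185).

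Chrna4 was the other gene outside the lists among the 12 largest rises. It encodes a nicotinic acetylcholine receptor subunit. Its level was 0.171, 0.428, 0.240 and 0.496 CPM fasted and 23.8, 1.29, 2.003, 21.6 and 9.01 CPM re-fed (log2 fold change 5.12 ± 0.88, adjusted p = 0.000945), and the call held. Re-fed 1 and 4 were the highest, re-fed 2 and 3 the lowest of the group, and all were above the fasted libraries. Among the 12 largest falls, Rab30, a small GTPase of the Golgi, was at 18.0, 18.4, 17.5 and 22.3 CPM fasted and 5.59, 5.35, 4.14, 3.74 and 3.67 CPM re-fed (log2 fold change -2.08 ± 0.23, adjusted p = 2.08e-05). Serpinb1a, a protease inhibitor, Rad51b, a DNA repair gene, and Krt23, a keratin, were at 4.21 to 5.08, 4.37 to 5.10 and 7.75 to 10.5 CPM in fasted liver and fell by 2.64, 2.42 and 2.32 on the log2 scale. The calls of these 4 genes held.

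Metallothioneins, small proteins that bind zinc and copper, fell. Mt1 was at 69.5, 49.1, 46.0 and 49.6 CPM fasted and 8.61, 11.1, 3.94, 12.1 and 5.04 CPM re-fed (log2 fold change -2.71 ± 0.55, adjusted p = 0.00324). Mt2 was at 21.5, 10.8, 9.37 and 12.5 CPM fasted and 2.08, 1.96, 0.835, 1.11 and 1.37 CPM re-fed (log2 fold change -3.21 ± 0.66, adjusted p = 0.00340). Fasted library 1 was the highest for both, and no re-fed library reached the fasted range. The 2 genes are close paralogs, and reads shared between them may have been split or dropped. Over the metal list 3 of 18 fell and 1 rose. The third fall, Ftl1, a ferritin subunit, was called at -0.39 and lost without fasted library 4 (adjusted p = 0.134). The rise, Slc30a10, a manganese exporter, rested on re-fed 3 and 5 (106 and 113 CPM; adjusted p = 0.358 without them).

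Drug metabolism genes fell in 7 of 26 cases and rose in none, with a median of -0.33, and 3 calls held. Cyp2e1, one of the most abundant cytochrome P450 transcripts of liver, was at 17540, 15440, 15480 and 16710 CPM fasted and 9901, 9723, 6776, 10000 and 5214 CPM re-fed (log2 fold change -0.97 ± 0.17, adjusted p = 0.00138), again lowest in re-fed 3 and 5. Ugt2b5, a glucuronosyltransferase, fell by 0.39 on the log2 scale. In the bile acid list 1 of 24 rose and 2 fell, against 6.42% and 6.82% of all genes tested. Abcb4, the canalicular phospholipid flippase, fell from a fasted range of 303 to 316 CPM to a re-fed range of 186 to 239 CPM (log2 fold change -0.63 ± 0.13, adjusted p = 0.00387), and Slco1a1, a sinusoidal anion uptake carrier, rose from a fasted range of 292 to 376 CPM to a re-fed range of 396 to 578 CPM (log2 fold change 0.56 ± 0.14, adjusted p = 0.0103). Abcc3, an export pump, was called at -1.54 and had an adjusted p of 0.0760 without re-fed 3 and 5. Cyp7a1, the rate-limiting enzyme of bile acid synthesis, was at 51.1, 73.5, 68.4 and 45.2 CPM fasted and 82.2, 299, 78.8, 97.4 and 41.4 CPM re-fed and was not called (log2 difference 1.01 ± 0.61, adjusted p = 0.291), with re-fed 2 far above all others. Among NRF2 antioxidant genes 3 of 18 fell, none rose, and no call held: without fasted library 4 the count was 0.

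In the interferon response list 6 of 26 genes fell and 1 rose, and 4 falls held. Ifit1, an interferon-induced RNA-binding protein, was at 33.9, 22.1, 23.1 and 14.3 CPM fasted and 9.86, 13.3, 6.17, 11.3 and 6.72 CPM re-fed (log2 fold change -1.30 ± 0.24, adjusted p = 0.00179), with fasted library 5 close to the highest re-fed value. Rsad2 and Igtp, also induced by interferon, fell by 0.75 and 0.74 on the log2 scale. Of 23 inflammatory signalling genes 3 fell and none rose, against 6.82% and 6.42% of all genes, and the list's median was 0.19. Il1rn, the interleukin 1 receptor antagonist, fell from a fasted range of 3.03 to 5.11 CPM to a re-fed range of 0.167 to 1.59 CPM (log2 fold change -1.80 ± 0.41, adjusted p = 0.00748). Myd88, the adaptor of Toll-like receptors, fell by 0.44, and Nfkbia, the NF-kB inhibitor, was called at -0.56 with an adjusted p of 0.0594 without fasted library 3. None of 24 acute phase genes was called (median 0.24, edgeR). Among sirtuins, NAD genes and mitochondrial regulators 1 of 23 rose and 3 fell. Qprt, an enzyme of NAD synthesis from tryptophan, rose by 0.36 (adjusted p = 0.00109) and held, and without fasted library 1 the falls numbered 1. Of the immediate early genes 1 of 19 was called (3 without re-fed library 2), Klf10, a glucose-responsive Krueppel-like factor, at 25.7, 26.5, 26.3 and 31.6 CPM fasted and 67.4, 40.9, 61.6, 58.2 and 39.9 CPM re-fed (log2 fold change 0.96 ± 0.21, adjusted p = 0.00531). In the cell cycle and p53 list Mki67 and Ccna2 of 25 genes were called, at 1.47 and 1.10, and lost without re-fed 3 (adjusted p = 0.107 and 0.118).

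Markers of the cell types of liver were checked, since in bulk tissue fewer cells of a type cannot be told apart from less RNA per cell. The 12 hepatocyte markers summed to 103000 to 120700 CPM in fasted and 90420 to 119200 CPM in re-fed libraries; Cps1 rose, Cyp2e1 fell and the other 10 were not called. None of the 15 Kupffer cell and macrophage markers was called, but all 15 had a log2 difference above 0 (median 0.39), and their sum was 217.7 to 231.8 CPM fasted and 230.0 to 312.0 CPM re-fed. None of 16 endothelial (sum 212.8 to 272.3 fasted, 195.5 to 337.0 re-fed), 14 stellate and fibroblast (293.2 to 336.4 and 321.9 to 399.0) or 6 cholangiocyte markers (36.96 to 43.83 and 33.49 to 44.61) was called. Of lymphocyte markers 8 of 12 were tested and 1 was called, Cd4, at 2.54, 1.53, 1.59 and 1.77 CPM fasted and 2.47, 4.02, 10.2, 2.69 and 8.40 CPM re-fed (log2 fold change 1.57 ± 0.39, adjusted p = 0.0109), with an adjusted p of 0.166 without re-fed 3 and 5. Of neutrophil and monocyte markers 6 of 11 were tested and none was called (sum 5.89 to 6.63 CPM fasted, 5.21 to 9.70 CPM re-fed). The same held for 4 of 12 markers of pancreas, fat and blood that were tested (173.2 to 193.4 and 196.7 to 242.4 CPM). The part of cell composition in the results above was not tested.

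The PLIN5 ASO libraries gave a second set of fasted and re-fed livers that shares no library with the control ASO groups. There 1148 genes were called on re-feeding (8.64%), of which 598 rose (4.50%) and 550 fell (4.14%). The count was 748 without re-fed PLIN5 ASO library 3 and 741 without fasted PLIN5 ASO library 5. Both sets called 492 genes, which is 27.97% of the control ASO calls and 42.86% of the PLIN5 ASO calls, and 490 of them moved in the same direction. Of the 1759 control ASO calls 1541 (87.61%) had the same sign under PLIN5 ASO. Across all 13293 genes, which are not independent replicates, the log2 differences of the 2 sets had a Pearson r of 0.376 and a Spearman rho of 0.321. Clock genes were shifted in fasted PLIN5 ASO libraries 3 and 5 as in re-fed control ASO libraries 3 and 5, so the shift lay in opposite feeding states of the 2 sets: Arntl was at 14.6 and 15.0 CPM there and at 0.566 to 1.66 CPM in the other 3 fasted PLIN5 ASO libraries. Without these 4 libraries 1167 genes were called under control ASO and 1048 under PLIN5 ASO, 696 of the latter among the 1148, and the part of the shift in the comparison of the 2 sets was not tested further. Fasn rose by 3.66 and 3.56 on the log2 scale under control and PLIN5 ASO and Pklr by 2.25 and 2.63. For Cyp4a14 the log2 fold changes were -5.30 and -3.91 and for Vnn1 -2.71 and -1.88.

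Idi1 had log2 differences of 3.44 and 0.61, G6pc of 1.21 and 0.34 and Gpam of 0.79 and 0.05. The test of the difference itself did not call any of these 3 (difference 2.83 ± 0.75, 0.86 ± 0.37 and 0.74 ± 0.21 SE; adjusted p = 0.168, 0.290 and 0.185). Klf10, with 0.96 and 2.33, was not called either (adjusted p = 0.117). Over all genes the difference was called for 3 (0.0226%), among them Rnf144b (1.19) and Dpm3 (-0.60), both at an adjusted p of 0.0482, with 1991 genes at an unadjusted p under 0.05 and 96 genes called by DESeq2. Without the 4 libraries with shifted clock genes the difference was called for 4 genes, 1 of the 3 among them. In the fits that left out 1 library the count was 0 to 3, and it was 0 without any single fasted control ASO library.

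**Figure D4:**
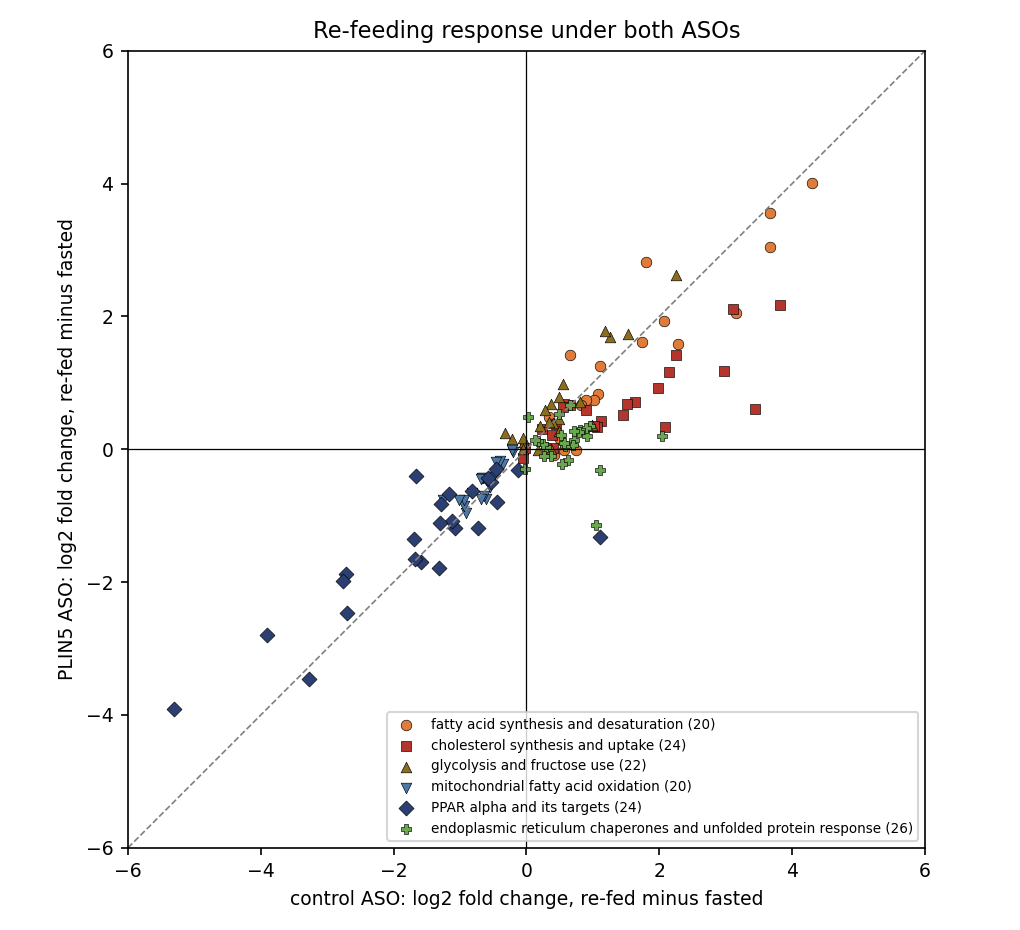
Log2 fold change on re-feeding under control ASO (horizontal) and PLIN5 ASO (vertical) for the genes of 6 lists, with a dashed line where both are equal. Fatty acid synthesis (Fasn 3.66 and 3.56) and PPAR alpha targets (Cyp4a14 -5.30 and -3.91) lie in opposite corners, and cholesterol genes have a median of 1.10 under control ASO and 0.60 under PLIN5 ASO. No cholesterol gene was called in the test of the difference between the 2 responses.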

How the data were processed

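The authors deposited 2 tables for the 19 libraries: read counts per gene, and FPKM (fragments scaled by transcript length and mapped reads) per gene. Tools listed in the submitters' processing notes are HISAT2 2.0.2, Subread, Cuffdiff 2.2.1, FastQC and edgeR, with the builds GRCm38 and mm10 and no word on which step used which. Not given in the sources used here are the annotation, the strand setting and how multi-mapping reads were counted. In the deposited counts, 27 symbols had been turned into dates and were kept under those names.

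The counts were scaled by the trimmed mean of M values, filtered with edgeR's filterByExpr (minimum count 10) and fitted over all 19 libraries with edgeR's quasi-likelihood test (edgeR 4.0.16 in R 4.3.3), so that the 4 groups shared 1 estimate of spread. The tested genes held at least 99.964% of the counts of every library. CPM values came from the same scaling. The contrast was re-fed minus fasted control ASO, and p-values were adjusted by Benjamini-Hochberg over all genes tested at a threshold of 0.05. Counts for 13196 genes were also simulated with known changes in this contrast, in 77 genes at 1.5-fold, 55 at 2-fold and 68 at 3-fold. The test found 48.1%, 70.9% and 91.2% of these, and 3.5% of 143 calls were genes that had not been changed. In the real counts 13.2% of genes were called, many more than were changed in the simulation. The simulated shares were not tested on the real libraries, where some libraries of a group stood apart and long transcripts were shifted. Deposited FPKM values were tested with limma 3.58.1 on the log2(FPKM + 1) scale, and DESeq2 1.42.0 was run on the counts, both as alternatives. Other alternatives were RLE size factors, other count filters, the 2 groups alone, a replicate block, libraries left out or summed, and removal of a trend with transcript length (lengths matched for 96.33% of genes tested).

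The 9 libraries, the 42 lists (893 genes, 887 in the table, 852 tested) and the tests were chosen with earlier results of these data known. Named genes (154) were the 12 largest rises and 12 largest falls among called genes whose mean reached 2 CPM in either group (names of Gm and digits or ending in Rik left out), the 3 smallest p of every list, the 6 called genes with the highest mean CPM, and a set fixed by name (Plin5, Arntl, Dbp, Srebf1, Fasn, Pck1, G6pc, Igfbp1, Irs2, Cpt1a, Fgf21, Cyp7a1, Asns and others). The following genes fall outside that rule and were chosen after their values were seen: Acaca, Acacb, Acsl3, Acsl5, Cyp51, Elovl6, Gpam, Hmgcs1, Hspa5, Lpin1, Map1lc3a, Map1lc3b, Me1, Msmo1, Mvd, Nr1h2, Nsdhl, Optn, Pgd, Plin2, Ppara, Rxra, Scd1, Slc30a10, Sqle, Srebf2 and Usf1, the 3 genes called for the difference between ASO groups, and the genes of the closing section that no list holds. Library numbers are those of the labels and were not taken to pair the samples. Some genes that the rule names are not reported here. Gene positions are from GENCODE M21 (GRCm38). Promoter windows are RefSeq's for GRCm38.p6 and end at its start sites, which can differ from GENCODE's, searched for exact letters on both strands.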

Additional observations from a re-analysis of the deposited data

Results flagged for a closer look

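Among 298 sets of values of the named genes reported here (1 set for each gene and group) a highest or lowest library stood far from the rest of its group in 23, or 7.72%, where chance gives about 1 in 20. Fasted library 1 accounted for 8 of these and re-fed library 5 for 7.

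In fasted library 1 Mt1 (69.5 CPM), Gaa (127 CPM), Il1rn (5.11 CPM), Asns (1.86 CPM) and Moxd1 (1.11 CPM) were higher than in the other 3 fasted libraries, and Rps14 (164 CPM), Tkfc (140.1 CPM) and Ugt2b5 (663 CPM) were lower. Igfbp2 (675 CPM) and Klf10 (31.65 CPM) were high in fasted library 5, and Mthfd2 (0.6415 CPM) in fasted library 3. Mt1, Gaa, Il1rn, Igfbp2, Tkfc, Ugt2b5 and Klf10 were called in every fit that left out 1 library.

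In re-fed library 5 Mup8 (933 CPM), Igfbp1 (213 CPM), Abcb4 (239 CPM), Hspa4l (25.5 CPM) and Fosb (28.8 CPM) were higher than in the other 4 re-fed libraries, and Arg1 (1289 CPM) and Asgr1 (431 CPM) were lower. Re-fed library 3 was high for Ccna2 (1.77 CPM) and low for Gpr182 (7.04 CPM). Re-fed library 2 was high for Cyp7a1 (299 CPM) and Ephx1 (572 CPM) and low for Mcm3 (2.80 CPM). The call of Mup8 was lost without re-fed library 5 (adjusted p = 0.805, edgeR), that of Ccna2 without re-fed library 3 (adjusted p = 0.118) and that of Ephx1 in 3 of the 9 fits that left out 1 library (highest adjusted p 0.0703).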

How the results depend on the processing

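The count of genes called on re-feeding under control ASO (1759; 853 rose, 906 fell) was 1782 with RLE size factors, 1497 with no filter on low counts, 1853 with a filter of 1 CPM in 4 libraries, 2228 with DESeq2, 1579 in a fit of the 2 groups alone, 1576 with the length trend taken out, and 1809 and 1810 with limma on log2(FPKM + 1) and log2(FPKM + 0.1). It was 1167 (516 rose) without re-fed control 3 and 5 and fasted PLIN5 3 and 5, 916 (399 rose, 517 fell) without re-fed control 3 and 5, which was chosen after seeing the data, and 1139 (515 rose) with fasted control 3 and 4 summed. With limma and no filter 582 genes fell. Leaving out 1 library gave 1112 to 1835 calls (500 to 899 rose, 612 to 936 fell), fewest without fasted control 3. With the replicate number as a block it was 2127, of which 1631 were among the 1759. Libraries with the same number did not deviate together (r = -0.019, -0.049, 0.085 and 0.087 across genes for numbers 1, 3, 4 and 5), and of the 4 fasted libraries 1 correlated best with its own number.

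Under PLIN5 ASO, leaving out 1 library gave 741 to 1170 calls against 1148. The count for the difference of the 2 responses (3) was 96 with DESeq2, 1 with the replicate block, 1 without re-fed control 3 and 5, 0 with no filter, with fasted control 3 and 4 summed, with the length trend taken out and with limma at either pseudocount or unfiltered, and 0 to 3 without 1 library. Long minus short transcripts stayed at 0.19 to 0.26 on the log2 scale in its 11 alternatives.

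Of the 112 named genes that were called, 73 stayed called without any 1 of the 9 libraries and without re-fed control 3 and 5. Among these fits, 10 were lost only in that without re-fed control 3 and 5, and 29 were lost without at least 1 library. Other alternatives also lost named calls: 15 with the length trend taken out, 20 with fasted control 3 and 4 summed and 14 in the fit of the 2 groups alone. With RLE size factors and with DESeq2 the number lost was 0. Npas2 turned in sign, to -0.34, without re-fed control 3 and 5. With 4 against 5 libraries, changes of 1.5-fold were found in 48.1% of simulated cases, a share not tested on the real libraries. A gene not called may have changed by that much. Low-count genes such as Npas2 and Moxd1, under 2 CPM in fasted liver, rest on few reads there.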

Other observations

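The 20 genes with the smallest p outside the lists and the named genes, chosen after their values were seen, were called in each fit that left out 1 of the 9 libraries and without re-fed 3 and 5. Names of Gm and digits, names ending in Rik and dates were left out of this choice. Acmsd, whose enzyme turns tryptophan breakdown away from NAD synthesis, was at 3.86, 5.59, 5.34 and 3.58 CPM fasted and 20.4, 22.3, 28.8, 16.2 and 31.3 CPM re-fed (log2 fold change 2.37 ± 0.26, adjusted p = 2.36e-05; edgeR). Every re-fed library was above every fasted one. Slc25a44, a mitochondrial carrier of branched-chain amino acids, was at 45.1, 51.6, 49.98 and 46.5 CPM fasted and 93.0, 81.8, 96.0, 99.2 and 105 CPM re-fed (log2 fold change 0.98 ± 0.09, adjusted p = 5.89e-06), the smallest p of the 20.

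Slc27a1 and Slc27a2, fatty acid transport proteins, fell by 1.55 and 0.87 on the log2 scale, Ech1, an auxiliary enzyme of unsaturated fatty acid oxidation, by 0.91, and Cyp4a12b, an omega-hydroxylase with close paralogs, by 0.78. Pla2g12a, a secreted phospholipase, was at 45.0, 33.3, 32.1 and 34.6 CPM fasted and 13.2, 10.4, 6.31, 14.9 and 5.96 CPM re-fed (log2 fold change -1.84 ± 0.24, adjusted p = 8.24e-05). Ifnar2, a subunit of the type I interferon receptor, fell from a fasted range of 97.4 to 111 CPM to a re-fed range of 66.9 to 75.3 CPM (log2 fold change -0.55 ± 0.06, adjusted p = 3.86e-05), and Slc23a2, a vitamin C transporter, fell by 0.89. Gm15441, a predicted gene, was at 4.23, 3.57, 3.39 and 6.797 CPM fasted and 0.0717, 0.0738, 0, 0.127 and 0.0685 CPM re-fed (log2 fold change -5.95 ± 0.89, adjusted p = 0.000312).

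The 2 deposited tables differ for a few genes. After scaling by length and by the median gene, 37 of 12805 genes (0.289%) were at least 8-fold higher in the deposited FPKM than in the counts, among them 5 list genes: Eno1, Apoc2, Rpl30, Ass1 and Rps20. Ass1, a urea cycle enzyme, had 0.743 to 0.931 CPM fasted and 1.17 to 1.51 CPM re-fed in the counts, where it was not called (log2 difference 0.56 ± 0.21, adjusted p = 0.0768). Its deposited FPKM was 12.9 to 21.4 fasted and 20.9 to 46.5 re-fed (limma log2 fold change 0.68, adjusted p = 0.0422). The cause was not tested.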
